A study of Homo sapiens with 10 samples.

Results

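The genes described are MGMT, which encodes the enzyme of direct reversal of alkylated guanine, and 9 further genes of DNA repair: MPG, UNG, OGG1, APEX1, XRCC1, PARP1, LIG3, NTHL1 and ALKBH1. They were followed through all probe sets that the annotation of the array assigns to 1 of these symbols alone, which gave 18 probe sets for 10 genes, of 12558 probe sets for 8226 named genes in all. OGG1 had 5 probe sets, LIG3 had 3, MGMT and PARP1 had 2 each, and the other 6 genes had 1 each. The signals came from 10 Affymetrix oligonucleotide arrays of human cell line RNA. A line of chronic myeloid leukaemia (CML), labelled sensitive, gave 5 arrays, and a subline of it that resists cyclophosphamide, labelled resistant, gave the other 5. The labels give both groups the same handling, growth in tissue culture medium, and name no drug exposure at harvest, no clone and no time, nor the name of the line or the way resistance was obtained. They do not say whether the samples of a group were separate cultures, so each p-value measures only the spread between these arrays, which may be technical.

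Cyclophosphamide is activated to products that alkylate DNA. The arrays did not measure which lesions formed or which enzyme removed them. MGMT takes an alkyl group from the oxygen of guanine onto a cysteine of its own and is used up in the reaction, so a cell's capacity depends on how much protein it holds. Base excision repair works as a relay: a glycosylase (MPG for alkylated purines, UNG for uracil, OGG1 for oxidised guanine, NTHL1 for oxidised pyrimidines) removes the damaged base, APEX1 cuts the strand at the empty site, PARP1 senses the break, XRCC1 holds the complex together, and LIG3, which binds XRCC1, seals the nick.

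MGMT (both probe sets) and LIG3 (1 of 3) were the genes with a probe set called different between the lines, so the 250 bases before their annotated starts are shown, from RefSeq on build GRCh38.p14, both on the plus strand, 5′ to 3′. Capitals mark the GC box letters GGGCGG on either strand, the sequence that the factor SP1 is known to bind. The windows are chr10:129466991-129467240 for MGMT and chr17:34980262-34980511 for LIG3.
MGMT: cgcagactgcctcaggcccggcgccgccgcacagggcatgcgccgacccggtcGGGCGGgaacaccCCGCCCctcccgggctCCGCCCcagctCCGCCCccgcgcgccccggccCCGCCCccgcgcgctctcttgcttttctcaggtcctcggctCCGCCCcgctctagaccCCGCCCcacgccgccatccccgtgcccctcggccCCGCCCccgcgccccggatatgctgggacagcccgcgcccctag
LIG3: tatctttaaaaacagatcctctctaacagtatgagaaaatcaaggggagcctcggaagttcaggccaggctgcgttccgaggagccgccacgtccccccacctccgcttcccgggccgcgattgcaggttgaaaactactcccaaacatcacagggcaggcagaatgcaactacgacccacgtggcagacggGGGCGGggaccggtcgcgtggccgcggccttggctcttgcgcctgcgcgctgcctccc
The MGMT window held 8 GC boxes and 36 CpG dinucleotides, and the LIG3 window held 1 and 21. At least 8 GC boxes were found in 0.584% of the 35116 windows of this length in the table, and at least 1 in 42.6%. The median number of CpG dinucleotides over all windows was 11. All 10 genes had a window (UNG had 2), with 16 to 36 CpG dinucleotides, and 8 of the 10 had a GC box, APEX1 and ALKBH1 being the exceptions. The letters TATAAA, sought on both strands, were in none of the windows of the 10 genes and in 10.7% of all windows. These are counts of letters, not of bound sites, and the arrays measured no binding or methylation.

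In the resistant line MGMT fell in both of its probe sets, LIG3 fell in 1 of 3, and no probe set of the 10 genes rose. A probe set was called where limma, fitted on log2(signal + 114.8) of all 12558 probe sets, gave a Benjamini-Hochberg adjusted p under 0.05. By that rule 3 of the 18 were called lower and 0 higher, where 2.99% of all probe sets were called lower, 4.42% higher and 7.41% in either direction. With the unadjusted p under 0.05 as the rule, 4 were lower and 1, XRCC1, was higher in limma. The share of all probe sets under that looser rule is not given here. Counts by unadjusted p, here and in later lists, therefore have no background to be read against. The log2 differences, resistant minus sensitive, split evenly in the main fit: 9 were negative and 9 positive, with a median of -0.02 beside 0.03 over all probe sets. The 5 OGG1 probe sets were all among the positive ones. With arrays scaled to a common median, OGG1 38334_g_at and PARP1 41146_at turned negative (-0.10 and -0.01), so the even split depends on the scaling. The groups of arrays did not overlap in 2 of the 18 probe sets, against 8.50% of all. Counted by gene, with the probe set of the highest mean log2 signal standing for each, 1 of the 10 was called, MGMT, against 8.40% of 8226 genes.

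**Figure D1:**
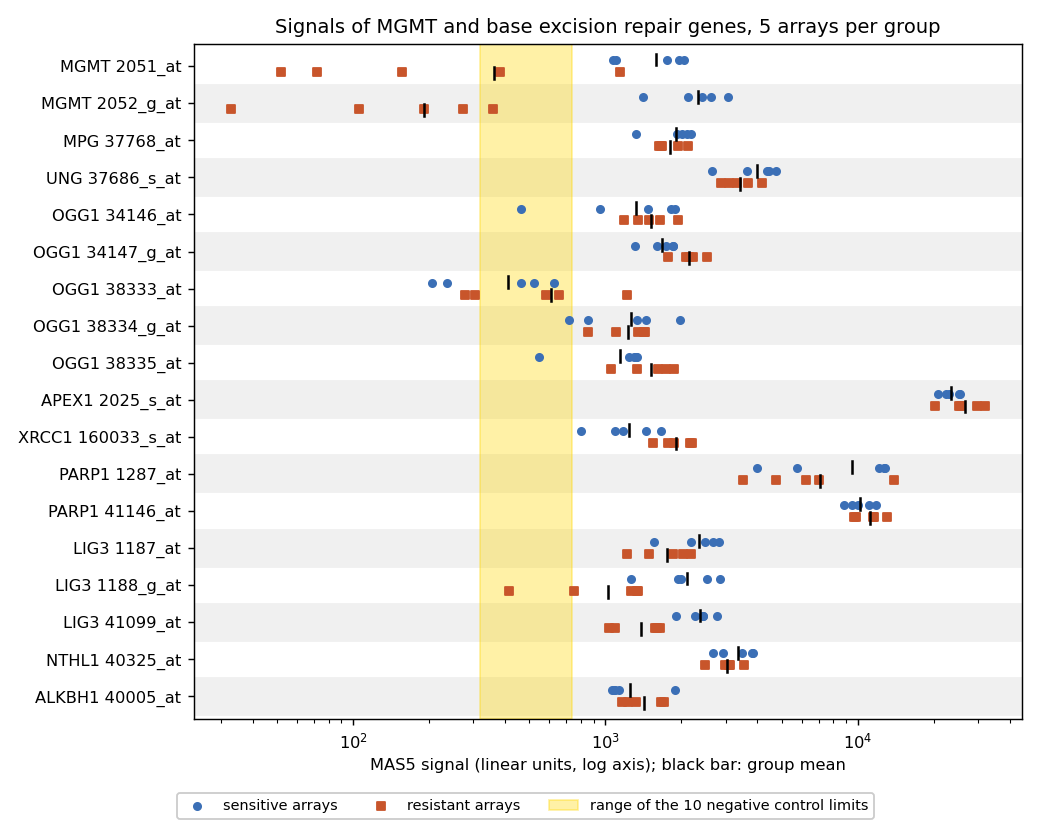
Signal of each of the 18 probe sets (horizontal log axis, linear MAS5 units) on the 5 sensitive arrays (blue circles) and the 5 resistant arrays (orange squares), with group means as black bars and the range of the arrays' negative control limits, 319.7 to 739.8, as a yellow band. The resistant arrays of MGMT lie mostly in or below the band, whereas most points of the other genes lie above it, those of OGG1 38333_at excepted, and only MGMT 2052_g_at and LIG3 41099_at show groups that do not overlap.

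The level of a probe set was read against a negative control limit, set on each array at the 95th percentile of 32 control probe sets with no human target. Across the arrays this limit lay between 319.7 and 739.8 signal units. Of the 18 probe sets, 14 were above it on all 10 arrays, so most of these genes were detected in both lines. The exceptions were both MGMT probe sets, 1 of LIG3 and 1 of OGG1. The share of all probe sets above the limit was 51.0% to 61.3% per array, and the GAPDH control gave 3' over 5' ratios of 0.801 to 0.968. Within a group, Pearson's r between arrays over all probe sets, which are not independent, was 0.925 to 0.960, and between groups 0.883 to 0.923.

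MGMT lies on chromosome 10. In bulk RNA such as this, fewer cells with a transcript and less of it per cell cannot be told apart. The probe set 2052_g_at gave signals of 3069.6, 2421, 1412, 2118 and 2622 on sensitive arrays 1 to 5, and 357, 33.0, 273, 106 and 191 on resistant arrays 1 to 5. All sensitive arrays were high and all resistant arrays low, with a wide gap between the lowest sensitive and the highest resistant array. Only resistant array 1 was above its own limit, and by a small margin (357 against 319.7). The means were 2329 ± 618 and 192 ± 129 (SD, n = 5 each). The log2 difference was -3.07 (SE 0.32, 95% interval -3.76 to -2.37, adjusted p = 6.79e-05, limma). Because the resistant signals were mostly below the limit, the size of this fall depends on the pseudocount (-3.45 with the 10th and -2.20 with the 40th percentile of all signals), and it gives no exact fold. The two-sided exact permutation p was 0.00794, the smallest that 5 against 5 arrays can give.

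The other MGMT probe set, 2051_at, gave 1748, 1959, 1073, 1104 and 2046 on sensitive arrays and 72.1, 381, 51.9, 1143 and 157 on resistant arrays. Here the groups overlapped, because resistant array 4, at 1143, was above the sensitive arrays 3 and 4. It was also the only resistant array above its limit (1143 against 739.8). On the same array 2052_g_at read 106, below the limit. The means were 1586 ± 467 and 361 ± 456 (SD, n = 5), the log2 difference -2.23 (SE 0.49, 95% interval -3.30 to -1.16, adjusted p = 0.0144, limma), and the two-sided exact permutation p 0.0238. Without resistant array 4 the log2 difference was -2.69 (adjusted p = 0.000574, limma). The annotation names the same source sequence for both probe sets, so they are not independent measurements, and the sources used here do not say which part of the transcript each covers. The fall of 2052_g_at minus that of 2051_at was -0.84 on the log2 scale (two-sided exact permutation p = 0.389). Each probe set was above the limit on only 1 resistant array, so this test cannot decide whether the falls differ. With both probe sets averaged, MGMT had a log2 difference of -2.65 (SE 0.25, adjusted p = 2.10e-05, limma).

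**Figure D2:**
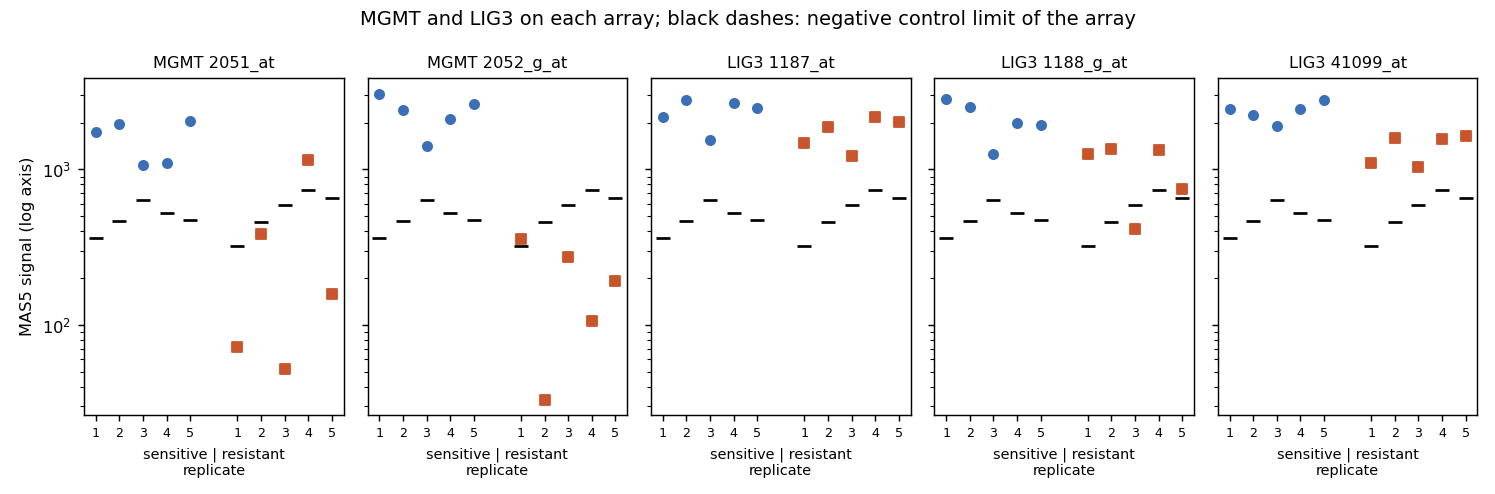
Signal (vertical log axis) of the 2 MGMT and 3 LIG3 probe sets on each array, sensitive arrays 1 to 5 as blue circles and resistant arrays 1 to 5 as orange squares, with the negative control limit of each array as a black dash. Resistant array 4 stands at 1143 in 2051_at and at 106 in 2052_g_at. LIG3 lies above the limit on every array except resistant array 3 in 1188_g_at.

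Most of the myeloid markers measured fell along with MGMT, but MPO did not. Of 9 myeloid markers measured, 7 were called lower and 0 higher, where 3.46% of all genes were called lower and 4.94% higher. The summed signal of the 9 was 66196 to 98780.1 in sensitive and 1227 to 2959 in resistant arrays. Among these markers, PRTN3, CEBPE, MS4A3, AZU1, ELANE, CSF3R and SPI1 were not above the limit on any resistant array. Of these, SPI1 was not called (log2 difference -1.07, limma adjusted p = 0.0529). Of 7 erythroid markers, KLF1 and TAL1 were called higher and 0 lower, with a summed signal of 7066 to 14530 and 22876 to 33604. The part of either in the result for MGMT was not tested. Of 8 T lymphoid, 5 B lymphoid and 6 epithelial markers 0 were called by limma (with unadjusted p-values under 0.05, 1 T lymphoid marker was higher and 1 lower, and 0 of the others). The lowest adjusted p of each of these lists was 0.208 (CD8A, log2 difference 0.72), 0.348 (PAX5, -0.85) and 0.609 (KRT19, -0.38). Of 5 fibroblast markers, 1 was called lower, LUM. CD3D, CD3G, TRAT1, MS4A1, CD79B, EPCAM, KRT5, KRT18, KRT19, COL1A2 and COL3A1 did not exceed the limit on any array. Of these, TRAT1 was the T lymphoid marker that was lower by limma's unadjusted p. Other markers of these lists did, among them KRT8 on all 10 arrays (means of 4838 ± 1598 and 4404 ± 741, SD, n = 5 each). LUM exceeded the limit on all 5 sensitive arrays, and CD3E on 3 arrays of each group. CD7 and CDH1 did so on 3 sensitive and 2 resistant arrays, and CD22 on 2 and 3. MPO, a defining enzyme of the granulocytic lineage, was above the limit on 1 sensitive and 2 resistant arrays. It was not called (means of 269 ± 227 and 304 ± 153, log2 difference 0.25, limma adjusted p = 0.835).

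The other enzyme of the set that acts on alkylated or otherwise modified bases without excision, ALKBH1, is a dioxygenase of the AlkB family encoded on chromosome 14. It was not called. Its signals were 1127, 1094, 1895, 1059 and 1084 on sensitive arrays and 1325, 1708, 1660.3, 1166 and 1229 on resistant arrays. Apart from sensitive array 3, which was higher than every other array, the sensitive arrays lay just below the resistant ones. The log2 difference was 0.18 (95% interval -0.27 to 0.63, adjusted p = 0.731, limma).

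None of the 4 glycosylase genes was called by limma. MPG, on chromosome 16, the glycosylase that removes alkylated purines, had a mean of 1911 ± 344 on sensitive and 1806 ± 219 on resistant arrays (SD, n = 5; log2 difference -0.07, 95% interval -0.47 to 0.34, adjusted p = 0.914, limma). Its sensitive arrays ran from 1323 to 2193 and its resistant arrays from 1636 to 2127, the latter wholly inside the former. UNG, on chromosome 12, which removes uracil, was 3971 ± 843 and 3427 ± 506 (log2 difference -0.19, 95% interval -0.63 to 0.25, adjusted p = 0.711). NTHL1, on chromosome 16, was 3342 ± 521 and 3041 ± 386 (log2 difference -0.13, 95% interval -0.51 to 0.26, adjusted p = 0.802). For these 3 genes the intervals leave out a change of 2-fold in either direction.

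OGG1, on chromosome 3, had log2 differences of 0.02 to 0.41 in its 5 probe sets, of which 38334_g_at turned to -0.10 with arrays scaled to a common median and to -0.07 with quantile normalization. None was called (adjusted p = 0.329 to 0.984, limma). These probe sets were designed from 3 source sequences and are not independent. The best measured, 34147_g_at, gave 1305, 1854, 1607, 1851 and 1738 on sensitive arrays and 1776, 2079, 2146, 2225 and 2517 on resistant arrays. In it 4 of the 5 resistant arrays were above every sensitive array, and resistant array 1 was within the sensitive range. Its log2 difference was 0.34 (SE 0.17, 95% interval -0.03 to 0.72, adjusted p = 0.329, limma; two-sided exact permutation p = 0.0238, unadjusted). The dimmest, 38333_at, was above the limit on 1 sensitive and 2 resistant arrays, and its difference of 0.39 has the wide interval of -0.40 to 1.18. With the 5 probe sets averaged the difference was 0.29 (SE 0.18, adjusted p = 0.419, limma).

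The next steps of the pathway, strand cutting and break sensing, likewise gave no call. APEX1, the main endonuclease at sites that have lost a base, is on chromosome 14. It read 25243, 25340.0, 22367, 20823 and 22997 on sensitive arrays and 25525, 31851, 29709, 20286 and 25248 on resistant arrays. Resistant arrays 2 and 3 were the highest and resistant array 4 the lowest of all 10, so the resistant arrays spread around the sensitive ones (log2 difference 0.17, 95% interval -0.21 to 0.55, adjusted p = 0.701, limma). PARP1, on chromosome 1, makes poly(ADP-ribose) chains at strand breaks. Its probe set 41146_at was 10225 ± 1190.5 and 11131 ± 1407 (SD, n = 5; log2 difference 0.12, 95% interval -0.25 to 0.49, adjusted p = 0.802). Its other probe set, 1287_at, was much more scattered, at 9486 ± 4257 and 7084 ± 4024, and its difference of -0.43 has an interval of -1.33 to 0.48 (adjusted p = 0.684). Both PARP1 probe sets are annotated to the same source sequence, and their differences are of opposite sign, although that of 41146_at was -0.01 with arrays scaled to a common median.

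The last step brought the second gene with a call. LIG3, on chromosome 17, encodes the ligase that seals nicks in the nucleus and in mitochondria. Its probe set 41099_at gave 2442, 2255, 1907, 2444 and 2779 on sensitive arrays and 1093, 1594, 1029.7, 1567 and 1638 on resistant arrays. The lowest sensitive array lay above the highest resistant one. The means were 2365 ± 318 and 1384 ± 297 (SD, n = 5), and LIG3 fell by 0.74 on the log2 scale in this probe set (SE 0.19, 95% interval -1.16 to -0.32, adjusted p = 0.0368, limma; two-sided exact permutation p = 0.00794). The call was close to the threshold: without sensitive array 1, 2, 4 or 5, or without resistant array 1, 2 or 3, the adjusted p in limma was 0.0517 to 0.088, at log2 differences of -0.79 to -0.65.

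The other LIG3 probe sets did not pass. In 1188_g_at the signals were 2835, 2532, 1266, 1998 and 1940.4 on sensitive arrays and 1265, 1348, 416, 1337 and 751 on resistant arrays. Sensitive array 3 lay among the higher resistant arrays, and resistant array 3 was below its limit (log2 difference -1.02, SE 0.32, adjusted p = 0.0806, limma). In 1187_at, the brightest, the signals were 2185, 2809, 1554, 2674 and 2481 against 1484, 1861, 1217, 2176 and 2023, with the groups overlapping through sensitive array 3 (log2 difference -0.40, 95% interval -0.88 to 0.08, adjusted p = 0.394). All 3 probe sets are annotated to 1 source sequence. Averaged, they gave a log2 difference of -0.72 (SE 0.21, adjusted p = 0.0575, limma), which does not pass.

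XRCC1, the scaffold protein that binds LIG3, is on chromosome 19 and has 1 probe set. Its signals were 1088, 1450.1, 803, 1178 and 1658 on sensitive arrays and 1777, 1540.2, 2208, 2162 and 1871 on resistant arrays. Only sensitive array 5 reached into the resistant range, above resistant array 2. The means were 1235 ± 330.1 and 1911 ± 278 (SD, n = 5), with a log2 difference of 0.61 (SE 0.21, 95% interval 0.15 to 1.07). It was not called (adjusted p = 0.119, limma), and the two-sided exact permutation p was 0.0159, unadjusted.

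**Figure D3:**
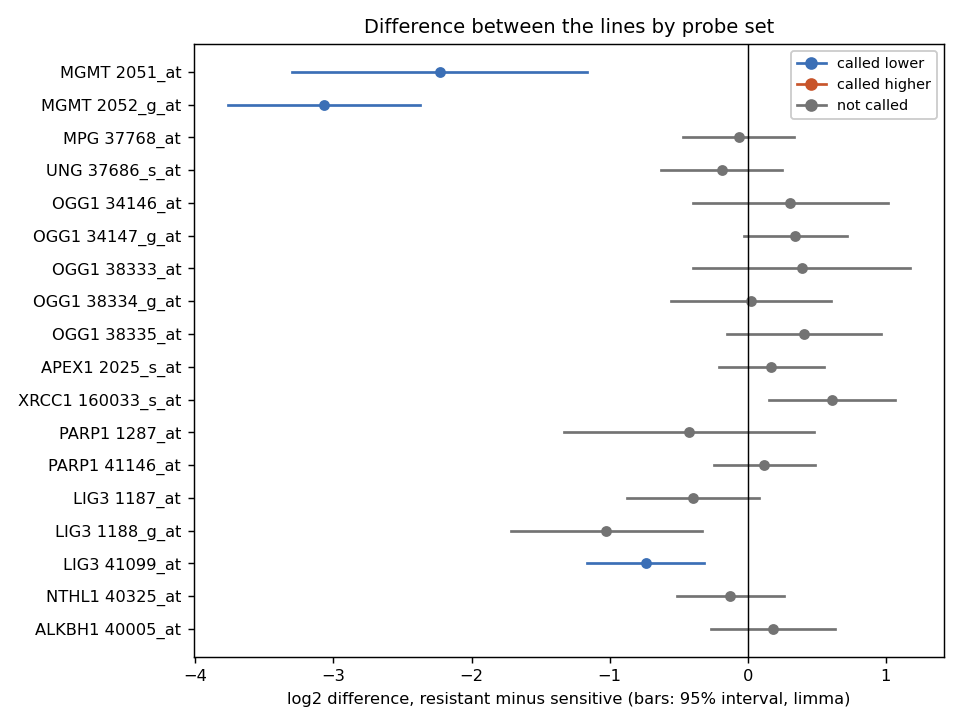
Log2 difference, resistant minus sensitive, of each of the 18 probe sets (points) with its 95% interval from limma (bars); blue marks probe sets called lower and grey those not called. MGMT stands apart at -3.07 and -2.23, LIG3 41099_at is called at -0.74, and the 12 probe sets of the 7 genes other than MGMT, LIG3 and XRCC1 lie between -0.43 and 0.41.

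Further genes of base excision repair and direct reversal were taken from a list of 43, of which 33 had a probe set with a single symbol. Of the 33 genes, 1 rose and 0 fell, where 4.94% of all genes were called higher and 3.46% lower. With limma's unadjusted p under 0.05 as the rule, 3 were higher and 2 lower. The shares of all genes above are for the adjusted p and are no background for these counts. The size of the difference was greatest for RAD9A, part of a checkpoint clamp, which was not called: its means were 1109 ± 348 and 607 ± 396 (SD, n = 5 each), with 3 resistant arrays above the limit (log2 difference -0.90, limma adjusted p = 0.219). The median log2 difference of the 33 genes was -0.0043 beside 0.03 over all genes. The gene that rose was APEX2, on the X chromosome, the second endonuclease for sites without a base. APEX2 read 1332, 759, 1266, 1112 and 938 on sensitive arrays and 2073, 1872, 2180.4, 1629 and 2073 on resistant arrays, with no overlap. Its log2 difference was 0.82 (adjusted p = 0.0196, limma). The call was lost with arrays scaled to a common median (log2 difference 0.70, adjusted p = 0.0786) and without sensitive array 2 (0.71, adjusted p = 0.0549).

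The other genes of that list gave no call at any step. Among glycosylases, MUTYH, which removes adenine paired with oxidised guanine, had a log2 difference of 0.51 (3222 ± 558 to 4620 ± 740.3, adjusted p = 0.153, limma), TDG had -0.30 (adjusted p = 0.684) and MBD4 had -0.40 (adjusted p = 0.312). POLB, the polymerase that fills the gap of a single base, had -0.0043 (adjusted p = 0.996). Of the genes of poly(ADP-ribose), PARP2 and PARP3 had 0.14 and 0.28, and PARG, which breaks the chains down, had 0.49, with groups that did not overlap (adjusted p = 0.784, 0.592 and 0.154). In the long repair patch, FEN1, the flap nuclease, had -0.09, the sliding clamp PCNA had 0.06 and the ligase LIG1 had -0.48 (adjusted p = 0.87, 0.922 and 0.356). POLD4, a small subunit of polymerase delta, had -0.51 with groups that did not overlap (adjusted p = 0.117). Its limma adjusted p was 0.0452 when only probe sets above the limit on 3 or more arrays of either group were tested. NUDT1 and DUT, which clear oxidised purine nucleotides and dUTP from the nucleotide pool, had -0.36 and -0.35 (adjusted p = 0.308 and 0.295).

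**Figure D4:**
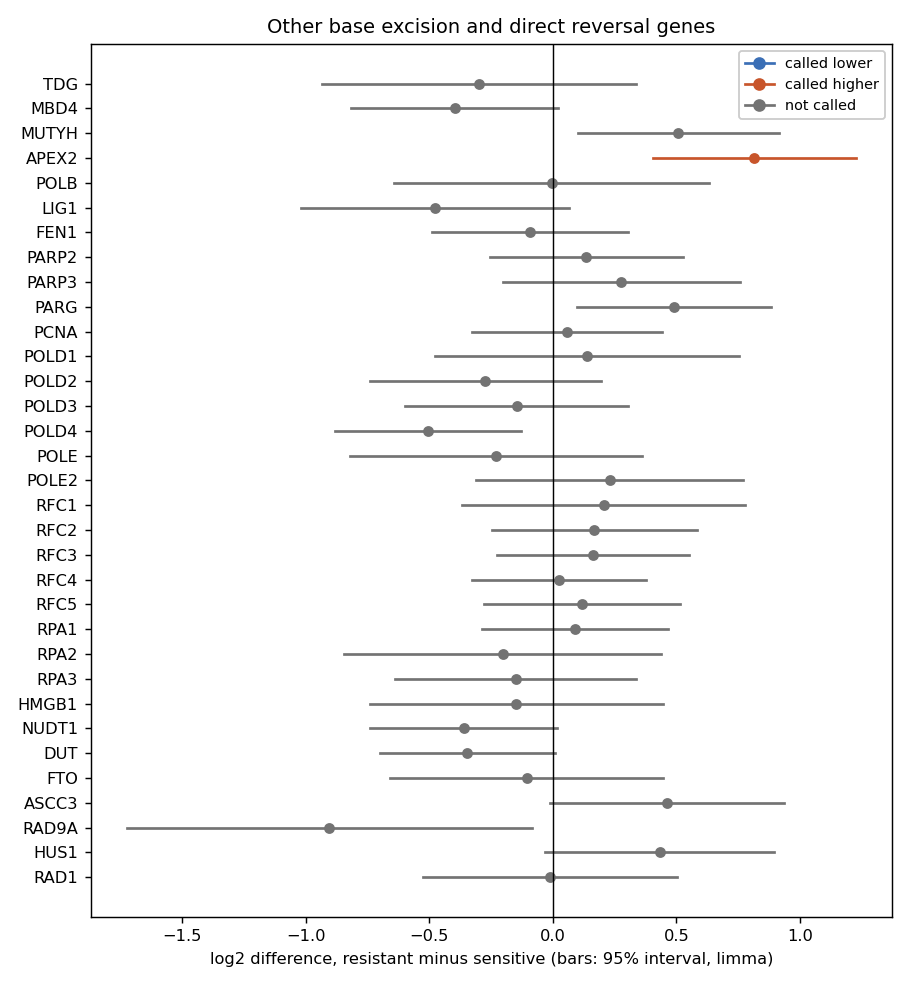
Log2 difference, resistant minus sensitive, of 33 further genes of base excision repair and direct reversal (points), each by its probe set with the highest mean, with the 95% interval from limma (bars). APEX2 (orange, 0.82) is the only gene called, and the intervals of most others include 0.

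Several of these repair genes are known to follow S phase, so 26 proliferation genes were read beside them. Of the 26, 0 rose and 1 fell: MCM4, a subunit of the replicative helicase on chromosome 8, with a log2 difference of -1.25 (limma adjusted p = 0.00251), where 4.94% of all genes were called higher and 3.46% lower. With the unadjusted p in limma under 0.05, 0 were higher and 2 lower, MCM4 and CCNA2, a count without a share of all genes beside it. The median log2 difference of the 26 was 0.0058. The summed signal of the list was 296570 to 370557 in sensitive and 309142 to 334650 in resistant arrays, the latter within the former. CCNA2, the cyclin of S phase, had means of 20414 ± 2225 and 14883 ± 1343 (SD, n = 5 each; log2 difference -0.45, limma adjusted p = 0.138). TYMS, which makes thymidylate, was 28208 ± 5698 and 27971 ± 2074 (log2 difference 0.0097, limma adjusted p = 0.99).

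The genes beside MGMT on chromosome 10 gave calls in both directions. Of the 10 measured genes before it and the 10 after it in the gene order of GRCh38.p14, 2 fell, 1 rose and 17 were not called, beside 3.46% of all genes called lower and 4.94% higher. Its nearest measured neighbours were MKI67, which marks cycling cells, and GLRX3. MKI67 was 3604 ± 891 and 2618 ± 594 (SD, n = 5; log2 difference -0.44, adjusted p = 0.31, limma). GLRX3 did not exceed the limit on any array. The genes that fell were PTPRE, a tyrosine phosphatase, and BNIP3, a mitochondrial protein of the BCL2 family. Among the measured genes, PTPRE was the next beyond MKI67 and BNIP3 the next beyond GLRX3. PTPRE read 754, 943, 847, 635 and 931 on sensitive arrays and 261, 286, 119, 19.2 and 95.2 on resistant arrays, none of these above the limit. It was at least 1.53-fold lower (adjusted p = 0.00138, limma), a bound that sets the sensitive signals against the limit. BNIP3 fell from 8854 ± 5043 to 1895 ± 606 (log2 difference -2.01, adjusted p = 0.00673). OAT, ornithine aminotransferase, the farthest of the genes before MGMT, rose from 7769 ± 4045 to 19927 ± 2744 (log2 difference 1.49, adjusted p = 0.0132). INPP5A had a log2 difference of -1.19 at an adjusted p of 0.0502, and was called under 5 alternatives.

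**Figure D5:**
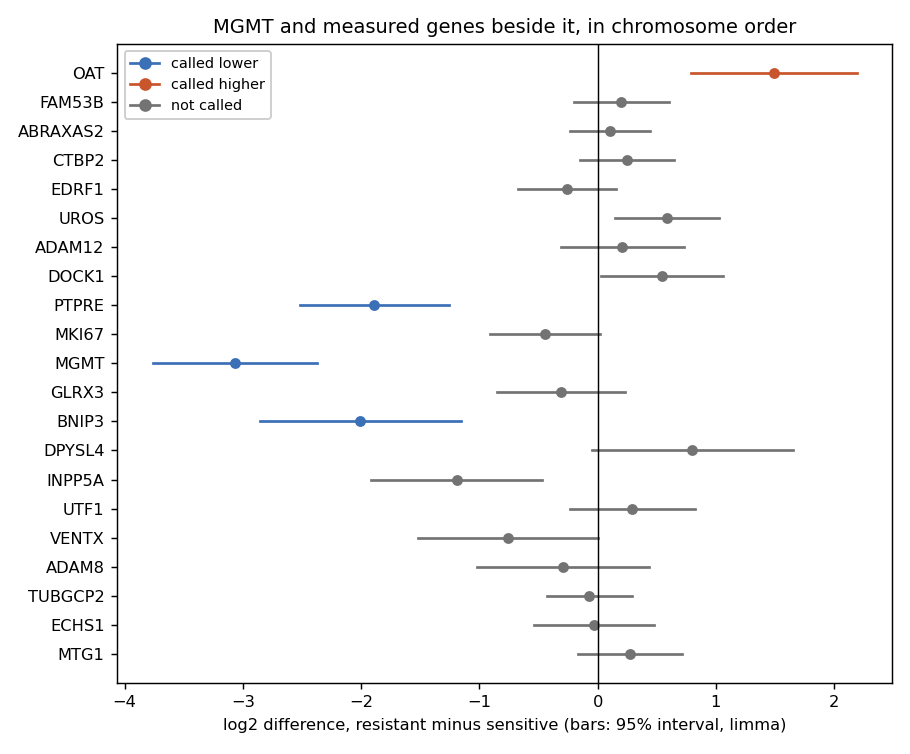
Log2 difference, resistant minus sensitive (points, with the 95% interval from limma as bars), of MGMT and the 20 measured genes nearest to it, listed from top to bottom in chromosome order. PTPRE (-1.89) and BNIP3 (-2.01) are called lower and OAT (1.49) higher. Between MGMT (-3.07) and PTPRE stands MKI67, not called, and between MGMT and BNIP3 stands GLRX3, which did not exceed the limit on any array.

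The genes whose log2 signal followed that of MGMT 2052_g_at most closely over the 10 arrays were P4HB, CST7, PRTN3, RNASE2 and MDFIC, out of 5286 genes that exceeded the limit on 3 or more arrays of 1 group. Pearson's r was 0.977 for P4HB, 0.965 for CST7, 0.962 for PRTN3, 0.961 for RNASE2 and 0.959 for MDFIC. P4HB, a protein disulfide isomerase, had signals of 71183 ± 8284 in sensitive and 18939.8 ± 3016 in resistant arrays. All 5 were called lower in the resistant line, and an r over arrays of both groups is set mainly by the difference between the groups. By deviations from the group means, which leave that difference out, the closest were CKS1B (r = 0.890), HLA-J (0.889), CSNK1G2 (0.854), IFNGR1 (0.839) and MICAL3 (0.837). None of these 5 was called by limma (adjusted p = 0.11 to 0.989). MGMT 2052_g_at was below the limit on 4 of the 5 resistant arrays, so much of this second order rests on signals at background. Both orders describe 10 arrays and carry no test.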

How the data were processed

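RNA of 10 samples was hybridised to 1 array each. The deposited values are intensities on a linear scale, 1 signal per probe set, made by the authors with MAS5 per the submitters' processing notes. Its version and settings were not given in the sources used here. Across all arrays the 2% trimmed mean was 2501.33 to 2501.51, so the deposited intensities were already on a common level. Of 12625 probe sets, 67 controls were left out. Of the remaining 12558, 10943 had 1 symbol, 545 several and 1070 none; symbols were updated by Entrez identifier to GRCh38.p14.

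Arrays were scaled to a common trimmed mean, and log2(signal + 114.8), with the 20th percentile of all signals as pseudocount, was tested with lmFit and eBayes (limma 3.58.1, R 4.3.3) without covariates. Log2 differences therefore understate changes of dim probe sets. P-values were adjusted over all 12558 probe sets in the main fit. With the filter on dim probe sets they were adjusted over the 7345 kept. With the probe sets of a gene averaged they were adjusted over the 8226 genes. Exact permutation tests were two-sided, over 252 regroupings. For a gene outside the 10, its brightest probe set (mean of log2 signals over all arrays) stood for it.

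All probe sets of the 10 genes were named; of other lists, the called genes or, with none, the one of lowest p; the nearest measured neighbours of MGMT; and the 5 genes most like MGMT by each correlation. MUTYH, TDG, MBD4, POLB, PARP2, PARP3, PARG, FEN1, PCNA, LIG1, POLD4, NUDT1, DUT, RAD9A, CCNA2, TYMS, INPP5A and the marker genes were named as examples after their values were seen. The genes and lists were chosen with earlier results of these data known. Alternatives were other pseudocounts, median or quantile scaling, a filter on dim probe sets, the replicate block, another variance model, each array left out, exact permutation and the mean of a gene's probe sets. Promoter sequences came from RefSeq. Replicate numbers were not used as pairs in the main analysis. Precision is limited by the number of arrays.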

Additional observations from a re-analysis of the deposited data

Results flagged for a closer look

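Within each group of 5 arrays, the highest or lowest log2 signal was checked for a gap to the nearest other array that exceeds 0.71 of the group's range (Dixon's 95% value). Of 36 groups of arrays, 3 met this, and chance flags about 1 in 20. MPG had a low signal of 1323 on sensitive array 3, where the other sensitive arrays were 1929.7 to 2193. ALKBH1 had a high signal of 1895 on the same array, against 1059 to 1127. OGG1 38335_at had a low signal of 545 on sensitive array 2, against 1238 to 1329. None of the 3 was in a group of resistant arrays or in a probe set that was called.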

How the results depend on the processing

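The falls of both MGMT probe sets kept their direction and their call under all alternatives run, at log2 differences of -3.45 to -2.20 (2052_g_at) and -2.69 to -1.52 (2051_at), the smallest with the pseudocount at the 40th percentile. The count of the 18 probe sets called lower was 2 to 4, and 0 were called higher throughout. LIG3 41099_at lost its call with the replicate number as a block (-0.74, adjusted p = 0.0526, limma) and ranged from -0.81 to -0.65 with 1 array left out. LIG3 1188_g_at gained one with the pseudocount at the 40th percentile (-0.85), with bright probe sets only, with the replicate block, with trend and robust estimation (-1.02 in each) and without sensitive array 3; with 1 array left out it ranged from -1.19 to -0.77. By unadjusted exact permutation it passed too (-1.02, p = 0.0238), as did OGG1 34147_g_at (0.34, p = 0.0238) and XRCC1 (0.61, p = 0.0159). Among the other repair genes, 0 were called higher with arrays scaled to a common median, 0 to 1 with 1 array left out, and 1 was called lower, POLD4, with bright probe sets only. Among the genes beside MGMT, 1 to 2 were called higher with 1 array left out; the second, without sensitive array 3, was UROS. With trend and robust estimation 2 proliferation genes were called lower, the second being CCNA2. Whether the replicate numbers pair the samples was not settled. Arrays of the same number had correlations of deviations of 0.036 to 0.229, with no values for arrays of different numbers to set beside them. The block therefore describes only a shared number. It changed no call of these genes other than the LIG3 ones. For dim signals such as MGMT in the resistant line, the negative control limit sets what can be measured.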

Other observations

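The signals of PARP1 1287_at fell into separate ranges that did not follow the lines. Sensitive arrays 1, 2 and 4 and resistant array 1 read 12162.7 to 13859.6, and the other 6 arrays read 3509.9 to 7038. The second PARP1 probe set, 41146_at, read 8835 to 13039 over all 10 arrays, with resistant array 4 the highest and sensitive array 5 the lowest. Over the 18 probe sets, sensitive array 3 was the lowest of its group in 8 and the highest in 2, whereas no resistant array was the lowest of its group in more than 5.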
